A study of Mus musculus with 8 samples.

Results

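The 10 genes described here are transcripts that glucocorticoid hormones induce in many tissues, together with the metallothioneins Mt1 and Mt2. They were chosen by symbol (Fkbp5, Tsc22d3, Zbtb16, Klf9, Cebpd, Sgk1, Glul, Ddit4, Mt1 and Mt2), each symbol matched 1 row, and they make up 10 of the 54091 gene rows of the table. All 10 passed the filter on low values, a mean of at least 10 normalized counts. RNA was taken from the white quadriceps, a thigh muscle in which fast glycolytic fibres predominate. The donors were 8 males, 11 to 14 weeks old and without food overnight for 14 h, with 1 library sequenced per mouse. The floxed control group (4 mice, replicates 1 to 4) is labelled Loxp/Loxp. The Acot2 muscle knockout group (4 mice, replicates 5 to 8) is labelled CKM Cre, in which Cre recombinase driven by the muscle creatine kinase promoter deletes Acot2, the gene of a mitochondrial acyl-CoA thioesterase, in muscle fibres. Fed mice, and mice with Cre but no floxed alleles, were not analysed here. Every value therefore belongs to the fasted state, and loss of Acot2 and the presence of Cre cannot be told apart. P-values for genotype weigh a difference against the spread between these mice.

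Glucocorticoids are adrenal steroids that rise during fasting. They cross the cell membrane and bind the glucocorticoid receptor, a transcription factor encoded by Nr3c1 that is held in the cytoplasm by heat shock proteins and their co-chaperones. The bound receptor moves to the nucleus and attaches to paired DNA elements near its target genes, and in skeletal muscle the response shifts the fibre towards protein breakdown, release of amino acids as glutamine and sparing of glucose. Metallothioneins are small cysteine-rich proteins that bind zinc and copper. Their genes answer to metals through the factor MTF1 and to glucocorticoids through the receptor.

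Sequences just upstream of these genes were searched for matches to elements of both pathways. RefSeq promoter windows (GRCm38.p6) matched 8 of the 10 genes, with 15 annotated starts in all, and the 250 bases before each start were searched on both strands. The whole glucocorticoid response element was searched as its arms AGAACA and TGTTCT with any 3 bases between them, a palindrome, and occurred upstream of 1 start of Sgk1, the fifth of its 6. It is shown because no other searched window held the whole element. The window lies at chr10:21993640-21993889 on the plus strand, within introns of longer Sgk1 transcripts and in no annotated exon, and the element, in capitals, begins at position -189 from the start.
Sgk1: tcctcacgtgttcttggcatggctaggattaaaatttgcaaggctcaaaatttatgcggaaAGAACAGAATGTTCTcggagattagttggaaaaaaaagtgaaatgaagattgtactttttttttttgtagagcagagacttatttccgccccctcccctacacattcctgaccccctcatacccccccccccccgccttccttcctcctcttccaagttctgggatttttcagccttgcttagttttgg
Of 32851 promoter windows of this length, 3 (0.00913%) hold the whole element. A single arm of the element (TGTTCT), which every whole element contains, was found upstream of 3 starts of Sgk1 and 1 start of Tsc22d3 and is present in 16.1% of all windows. No single arm occurred in the windows of Fkbp5, Klf9, Glul, Ddit4, Mt1 or Mt2, which says only that these letters are not within 250 bases of those starts.

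The upstream sequences of Mt1 and Mt2 are shown because these genes lie side by side and are the metallothioneins of the set. In capitals is the core of the metal response element, searched as TGCGCNC and TGCACNC. The Mt2 window lies at chr8:94172368-94172617 and that of Mt1 at chr8:94178839-94179081, both on the plus strand, with bases that the annotation counts as exon left out for Mt1.
Mt2: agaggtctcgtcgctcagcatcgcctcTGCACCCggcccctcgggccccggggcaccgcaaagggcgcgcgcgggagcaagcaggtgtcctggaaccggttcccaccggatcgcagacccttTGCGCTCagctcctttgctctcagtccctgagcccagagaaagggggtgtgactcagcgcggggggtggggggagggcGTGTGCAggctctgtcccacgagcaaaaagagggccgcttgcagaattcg
Mt1: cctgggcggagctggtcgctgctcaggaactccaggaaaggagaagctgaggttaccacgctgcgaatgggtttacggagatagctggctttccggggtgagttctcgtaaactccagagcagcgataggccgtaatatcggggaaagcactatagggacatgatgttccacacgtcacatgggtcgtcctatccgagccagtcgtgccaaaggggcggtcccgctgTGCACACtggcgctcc
The Mt2 window holds 3 cores and the Mt1 window 1. Bases after the annotated starts, 94172618 for Mt2 and 94179089 for Mt1, were not searched. The counts therefore depend on the start used and do not compare the whole promoters of the 2 genes. At least 1 core is present in 21.4% of all windows and 3 or more in 1.26%. Ddit4 and Glul hold 1 core each, and the windows of Fkbp5, Klf9, Sgk1 and Tsc22d3 hold none. A match describes the sequence and does not show that a factor binds there.

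**Figure D1:**
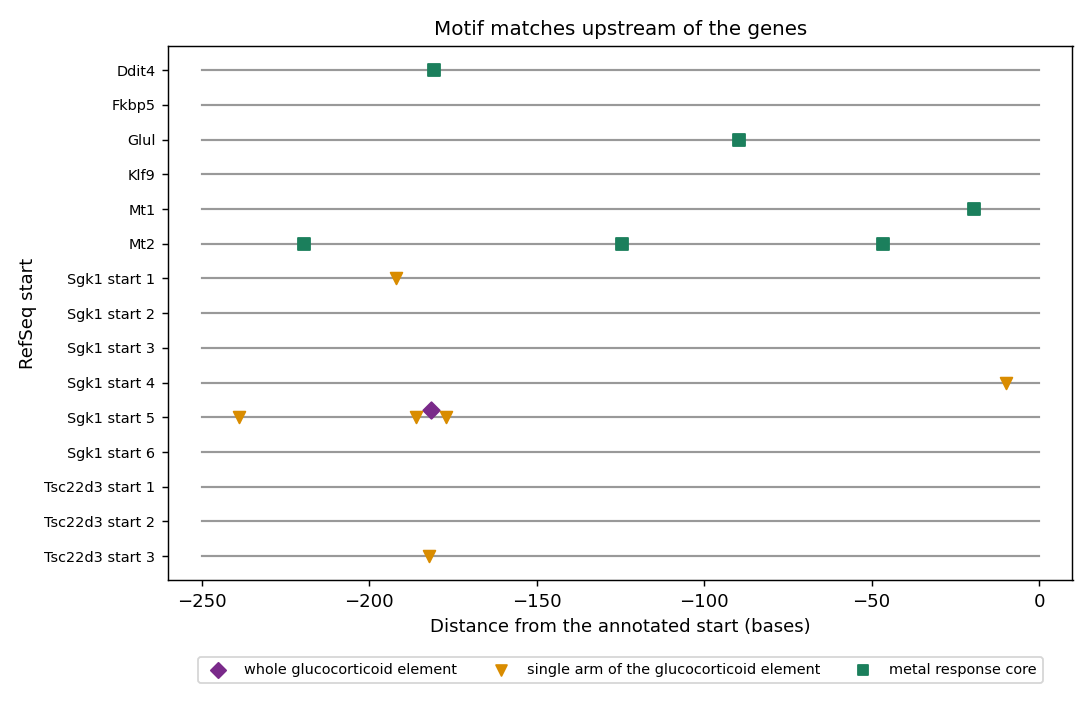
Matches to the whole glucocorticoid response element (diamond), a single arm of it (triangle) and the metal response core (square) in the 250 bases before each RefSeq start of 8 of the 10 genes. The horizontal axis is the distance from the start in bases. The whole element appears before 1 start of Sgk1 only. The searched window of Mt2 has 3 metal response cores against 1 in that of Mt1, and bases after the starts were not searched.

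Libraries held from 28659632 to 40977866 reads on genes. Normalized counts of Acot2, the targeted gene, averaged 2406 ± 1099 in the controls against 467 ± 130 in the knockouts (SD, n = 4 each), with every knockout below every control (-2.30 log2, limma adjusted p = 0.087; exact two-sided permutation p = 0.0286, the smallest this design allows). Markers of fast glycolytic fibres were detected in all libraries, with summed levels of 4977495 to 5942061 normalized counts in controls and 3941004 to 6492213 in knockouts, while markers of oxidative and slow fibres summed to 11380 to 39696 and 21013 to 103838. Knockout 7 stood apart on both, with the lowest fast glycolytic sum and the highest oxidative and slow sum of the 8 libraries. The titles give the mice numbers from 3204 to 3210, except floxed control 3 (3250) and knockout 8 (3251), and do not say what the numbers stand for. The titin transcript Ttn made up 11.8% to 14.9% of normalized counts in controls and 8.34% to 13.9% in knockouts. Labels give no harvest time per mouse and no sequencing date, and bulk RNA does not separate fewer cells of a type from less RNA per cell.

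None of the 10 genes differed between genotypes beyond the spread between mice. With limma and Benjamini-Hochberg adjustment over the 13141 tested genes, 0 of the 10 passed an adjusted p of 0.05, and 0% of all tested genes did. At an unadjusted p under 0.05 there were 0 of the 10 by limma and 0 by voom on recovered reads, where 6.16% of all tested genes passed by limma. The groups overlapped in all 10 genes, and in 2.75% of all tested genes they did not. Of the 10, 8 had a lower mean log2 value in the knockout, where 49.4% of all tested genes were lower. Their median difference was -0.07 log2, with a range from -0.42 (Ddit4) to 0.06 (Sgk1), and the median of all tested genes was 0.0031. How many were lower depended on single mice. Of the 10, 4 were lower without knockout 7 (median 0.049) and 5 without floxed control 1 (median -0.0052). All 10 were lower without floxed control 3, without floxed control 4 or without knockout 8. Zbtb16, Klf9, Cebpd and Ddit4 were lower whichever mouse was left out. Without both mice of the separate number range, floxed control 3 and knockout 8, all 10 were lower, with a median of -0.23. In that fit 2 of the 10 had an unadjusted limma p under 0.05, and still none was called.

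**Figure D2:**
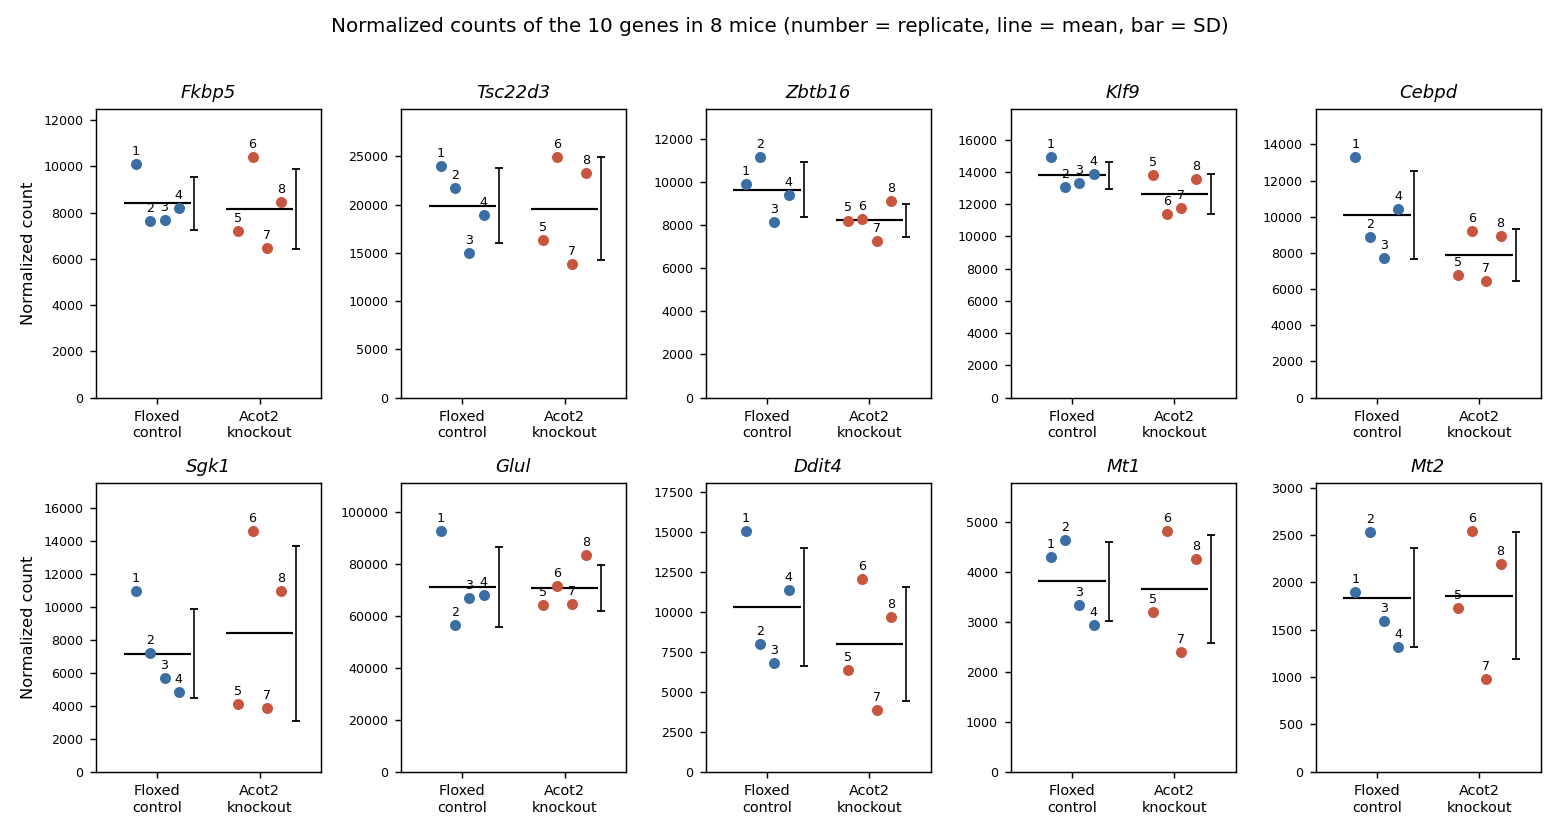
Normalized counts of each gene in each mouse, with floxed controls in blue and Acot2 knockouts in red, the replicate number above each point, the group mean as a line and the SD as a bar. The groups overlap in all 10 genes. Floxed control 1 and knockout 6 are the highest mice of their groups in most panels, and knockout 7 is the lowest of all 8 mice in 8 panels.

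Fkbp5 encodes FKBP51, a co-chaperone that lowers the affinity of the receptor for its hormone and is itself induced by it, so that it closes a feedback loop. It spans 28399094 to 28517527 of chromosome 17, on the minus strand (GRCm38, as for all positions below). In normalized counts, Fkbp5 stood at 10080, 7644, 7661 and 8193 in floxed controls 1 to 4 and at 7204, 10414, 6474 and 8476 in knockouts 5 to 8, the order used throughout. The highest and the lowest mouse were both knockouts, and 2 of the 4 knockouts lay within or above the control range. The difference was -0.06 log2 (SE 0.146, 95% interval -0.38 to 0.26, limma adjusted p = 0.931), which corresponds to 0.961-fold with an interval from 0.769 to 1.2.

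Tsc22d3 encodes GILZ, a leucine zipper protein that carries part of the anti-inflammatory action of glucocorticoids, and lies on the minus strand of chromosome X from 140539528 to 140600659. Controls had 23987, 21755, 14937 and 18904 normalized counts of Tsc22d3 and knockouts 16334, 24960, 13825 and 23258. Knockouts 6 and 8 were as high as controls 1 and 2, knockout 7 was below every control, and knockout 5 lay between controls 3 and 4. The difference between genotypes was -0.04 log2 (SE 0.20, 95% interval -0.48 to 0.40, limma adjusted p = 0.969).

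Among the transcription factors of the set, Zbtb16, Klf9 and Cebpd had lower means in the knockout, none of them called. Zbtb16 encodes the zinc finger protein PLZF (chromosome 9, 48654297 to 48836222, minus strand). It had 9898, 11176, 8142 and 9406 normalized counts in controls and 8216, 8282, 7258 and 9121 in knockouts. Only control 3 lay among the knockouts, and the difference of -0.23 log2 (SE 0.108, 95% interval -0.47 to 0.01) had a limma adjusted p of 0.746 and an exact two-sided permutation p of 0.114. Of the 10 genes, Zbtb16 had the largest part of its variation between the groups, at 39.0% of the sum of squares.

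Klf9 encodes a Krüppel-like factor that also carries circadian timing (chromosome 19, 23141226 to 23168134, plus strand). Its levels were 14945, 13073, 13318 and 13879 normalized counts in controls and 13810, 11394, 11752 and 13572 in knockouts. It was the steadiest of the 10 genes, with a residual SD of 0.117 log2, at the 15.8th percentile of all tested genes. The 95% interval of its difference, -0.33 to 0.07 log2 around -0.13, corresponds to 0.794- to 1.05-fold (limma adjusted p = 0.767).

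Cebpd encodes the early responding factor C/EBP delta and consists of a short gene on chromosome 16 (15887286 to 15891031, plus strand). Controls had 13319, 8897, 7712 and 10416 normalized counts and knockouts 6798, 9235, 6446 and 8958. Control 1 was the highest mouse and knockouts 5 and 7 lay below every control. The difference was -0.35 log2 (SE 0.172, 95% interval -0.73 to 0.03, limma adjusted p = 0.746, exact two-sided permutation p = 0.2) and was -0.20 without floxed control 1.

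**Figure D3:**
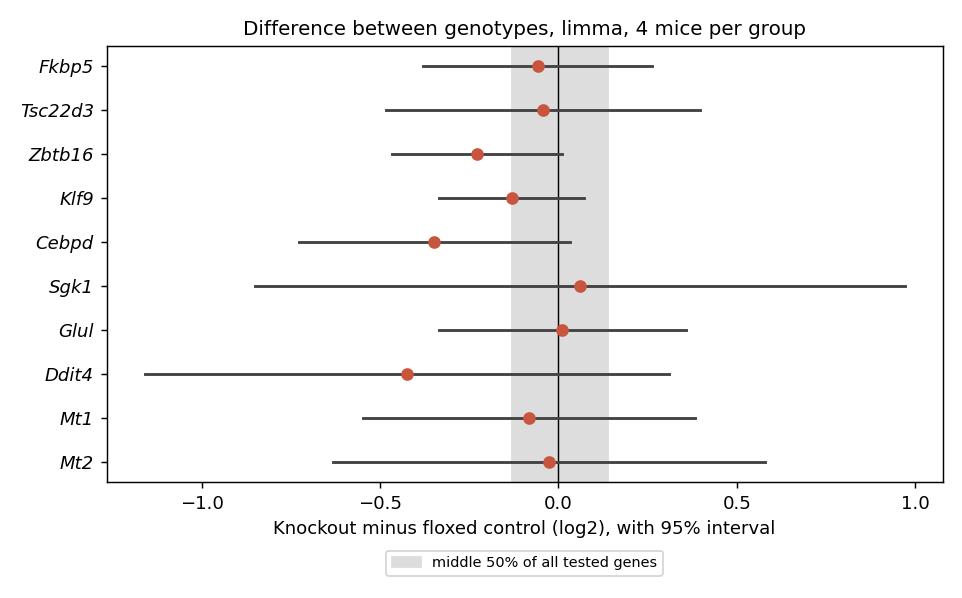
Difference between the genotypes in log2 units, knockout minus control, for each gene (points) with the 95% interval of the limma fit (lines); the grey band holds the middle 50% of all 13141 tested genes, from -0.13 to 0.14. Every interval includes 0, and the widest are those of Sgk1 and Ddit4.

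Sgk1 encodes a kinase that acts on ion channels and on FOXO factors downstream of insulin signalling, and it varied more between mice than 94.4% of tested genes. It spans 21882184 to 21999903 of chromosome 10, on the plus strand. Normalized counts of Sgk1 were 10927, 7184, 5698 and 4819 in controls and 4082, 14590, 3893 and 10971 in knockouts. Knockouts 6 and 8 lay above every control and knockouts 5 and 7 below every control. The group means, 7157 ± 2697 and 8384 ± 5288 (SD, n = 4 each), therefore hide a 3.75-fold range within the knockouts and a 2.27-fold range within the controls; whether the 2 ranges differ was not tested. The difference was 0.06 log2 with a 95% interval from -0.85 to 0.97, that is from 0.555- to 1.96-fold (limma adjusted p = 0.979).

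Glul encodes glutamine synthetase, through which fasting muscle exports nitrogen, and was the most abundant of the 10 transcripts. Its place is chromosome 1, 153899944 to 153909723, plus strand. Controls had 92784, 56598, 67061 and 68176 normalized counts of Glul and knockouts 64449, 71437, 64525 and 83372. Control 1 was the highest and control 2 the lowest of all mice, so the knockouts lay inside the control range. The group means were 71155 ± 15333 and 70946 ± 8909 (SD, n = 4 each), a difference of 0.01 log2 (95% interval -0.34 to 0.36, limma adjusted p = 0.988).

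Ddit4 encodes REDD1, which inhibits the growth kinase complex mTORC1, and had the largest mean difference of the set. It spans 59949669 to 59951834 of chromosome 10, on the minus strand. Controls had 15053, 8005, 6807 and 11376 normalized counts of Ddit4 and knockouts 6352, 12025, 3884 and 9694. Knockout 7 held the lowest value of all mice, 3.88-fold below control 1, and knockouts 6 and 8 lay inside the control range. The difference was -0.42 log2 (SE 0.334, 95% interval -1.16 to 0.31, limma adjusted p = 0.790, exact two-sided permutation p = 0.371). It was -0.12 without knockout 7 and -0.66 without knockout 6.

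Mt1 and Mt2 encode the metallothioneins found in most tissues and lie side by side on chromosome 8 (plus strand), Mt2 from 94172664 to 94173568 and Mt1 from 94179082 to 94180327, with 5513 bases between them. The longest stretch that their annotated transcripts share is 20 bases. Mt1 had 4312, 4648, 3349 and 2948 normalized counts in controls and 3194, 4823, 2405 and 4254 in knockouts. Mt2 had 1902, 2532, 1594 and 1322 in controls and 1727, 2542, 982 and 2190 in knockouts. In both genes knockout 6 was the highest mouse, closely followed by control 2, and knockout 7 was the lowest. Differences were -0.08 log2 for Mt1 (95% interval -0.55 to 0.38, limma adjusted p = 0.934) and -0.03 log2 for Mt2 (95% interval -0.63 to 0.58, limma adjusted p = 0.986). Without knockout 7 they were 0.10 and 0.25.

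The ratio of Mt1 to Mt2 counts was similar in the mice. It was 2.27, 1.84, 2.10 and 2.23 in controls and 1.85, 1.90, 2.45 and 1.94 in knockouts, with means of 2.11 ± 0.195 and 2.03 ± 0.279 (SD, n = 4 each). The groups overlapped, and the exact two-sided permutation p for the log2 ratio was 0.629. Per kilobase of annotated exon the 2 genes stood at nearly the same level in controls, 3061 ± 640 for Mt1 and 3125 ± 885 for Mt2 (normalized counts per kilobase, SD, n = 4). On that scale Glul led the set at 21413 in controls, followed by Ddit4 at 5875 and Tsc22d3 at 4583, and Fkbp5 was the lowest at 887. Exon length counts all annotated transcripts of a gene, so a gene with many alternative exons, such as Fkbp5, comes out low. For Mt1 this length is 1246 bases, the whole span of the gene, so that its introns are counted as exon. For Mt2 it is 588 bases. The nearly equal level of Mt1 and Mt2 per kilobase depends on these lengths.

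Spread between mice in these genes was shared: the same animals were high or low in several of them. Knockout 7 was the lowest of the 8 mice in 8 of the 10 genes, all but Klf9 and Glul, where it is lowest in 13.8% of all tested genes. Knockout 6 was the highest in 5 (18.0% of all tested genes) and floxed control 1 in 4 (11.6%). Floxed control 1 and knockout 8 lay above the mean of the 8 mice in all 10 genes, and knockout 7 lay below it in all 10. The median deviation from the mean of the 8 mice was 0.31 log2 in floxed control 1, 0.36 in knockout 6, 0.21 in knockout 8 and -0.46 in knockout 7. The median difference between genotypes was -0.07. It compares means of 4 mice, which vary less than single mice, so the sizes cannot be set directly against each other.

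**Figure D4:**
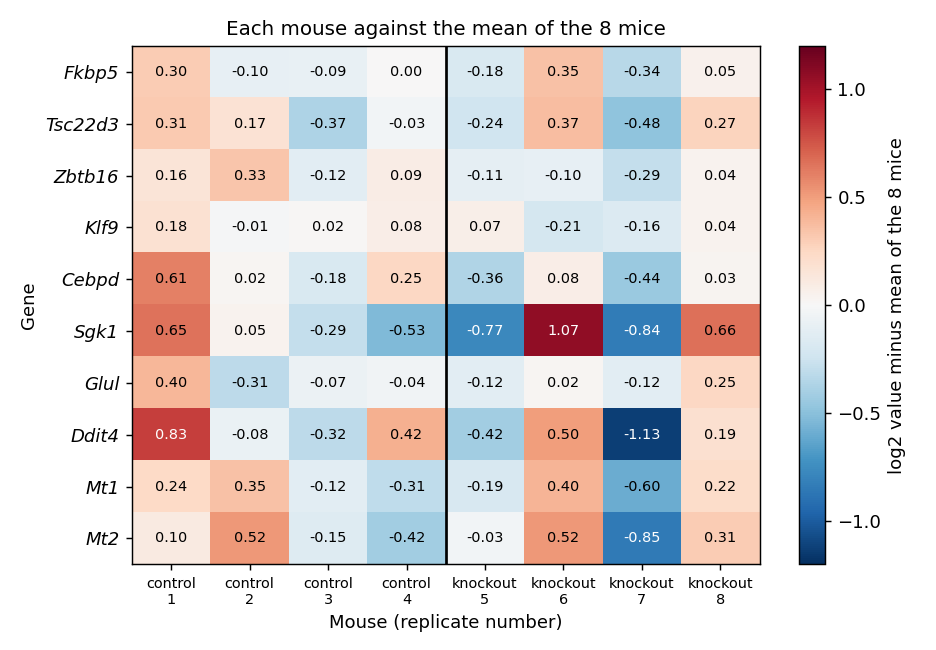
Log2 value of each gene in each mouse minus the mean of the 8 mice (red, higher; blue, lower), with genes in rows and mice in columns. Columns rather than groups carry the pattern: control 1 and knockout 8 are positive and knockout 7 is negative in every row, and knockout 6 is negative for Zbtb16 and Klf9 only.

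Of the 45 pairs among the 10 genes, 44 had a positive Pearson correlation over the 8 mice, with a median r of 0.63, and 9 passed an adjusted p of 0.05 (exact permutation of pairings, Benjamini-Hochberg over 45 pairs). Mt1 and Mt2 were the closest pair, with r = 0.97 (exact permutation p = 0.000174, adjusted p = 0.00781) and Spearman's rho = 0.95 (exact permutation p = 0.00114, adjusted 0.0257). Without the mice farthest from the median of Mt1, floxed control 4 and knockout 7, r was 0.91. Fkbp5 and Ddit4 had r = 0.92 (exact permutation p = 0.000893, adjusted p = 0.0201), rho = 0.93 (exact permutation p = 0.00223, adjusted 0.0335) and r = 0.96 without floxed control 1 and knockout 6. Cebpd and Ddit4 had r = 0.92 (exact permutation p = 0.00149, adjusted p = 0.0223), rho = 0.98 (exact permutation p = 0.000397, adjusted 0.0179) and r = 0.89 without floxed control 1 and knockout 7. The other 6 pairs that passed were Fkbp5 with Sgk1 and Tsc22d3, Tsc22d3 with Sgk1, Ddit4 and Mt1, and Sgk1 with Mt1. For the 9 pairs the lowest r was 0.855, rho ran from 0.83 to 0.98, and r ran from 0.70 to 0.97 after leaving out the farthest pair of mice and from 0.88 to 0.97 in the 6 mice numbered 3204 to 3210. By rho, 10 pairs passed, and the set was not the same. Fkbp5 with Cebpd and Sgk1 with Mt2 passed by rho only (exact permutation, adjusted p = 0.0482 each). Tsc22d3 with Mt1 did not pass by rho (adjusted p = 0.0532). When every library was scaled to the same total, 1 of the 45 pairs passed by r, Mt1 with Mt2 (r = 0.96).

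No pair with Klf9, Zbtb16 or Glul passed. The 9 correlations of Klf9 ran from -0.06 to 0.52, with a smallest adjusted p of 0.271 (exact permutation), but they depended on a few mice. Leaving out the pair of mice farthest from the median moved r from 0.13 to 0.78 for Klf9 with Fkbp5 (without floxed control 1 and knockout 6) and, without knockouts 6 and 7, from 0.44 to 0.78 for Klf9 with Glul and from 0.42 to 0.75 for Klf9 with Ddit4. Without the same knockouts it moved from 0.05 to -0.27 for Klf9 with Mt2. All pairs share the 8 libraries and their size factors.

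**Figure D5:**
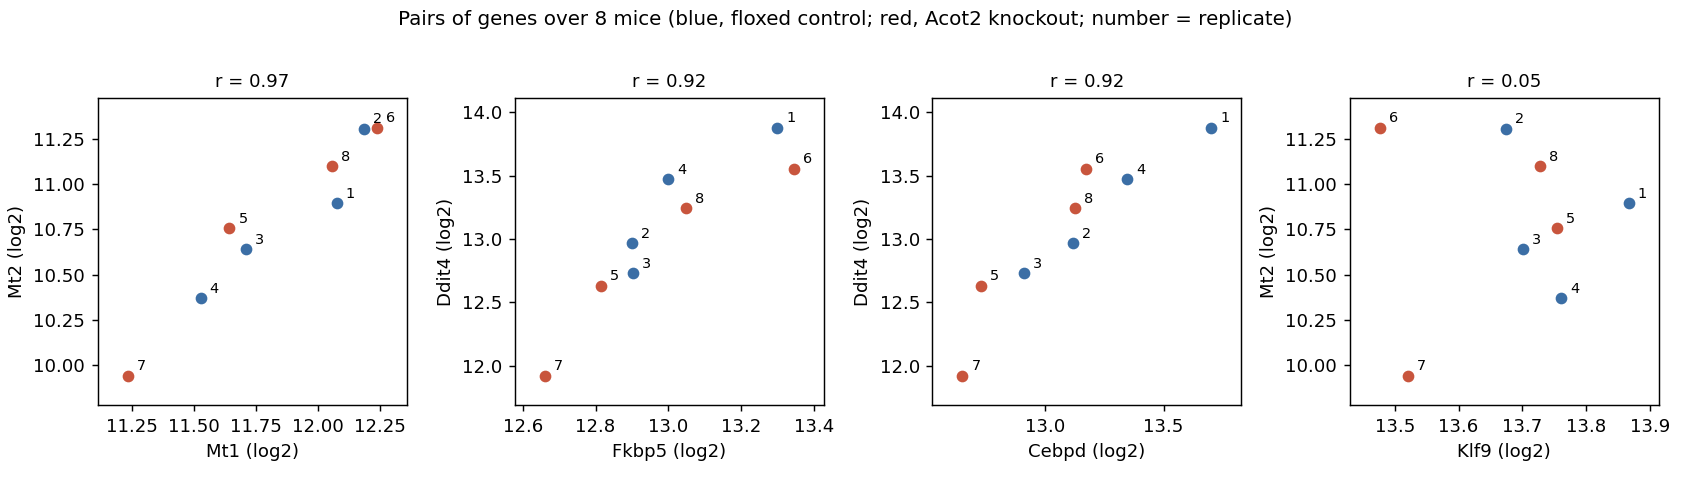
Log2 values of 4 pairs of genes, 1 point per mouse (blue, floxed control; red, Acot2 knockout; the number is the replicate). Mt1 with Mt2, Fkbp5 with Ddit4 and Cebpd with Ddit4 line up with r of 0.97, 0.92 and 0.92, with knockout 7 at the low end, whereas Klf9 with Mt2 gives 0.05.

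Other measures also differed between the mice that were high or low, but not all in the same order. Adipoq, the adipocyte hormone gene, had 11.8, 79.2, 188 and 95.1 normalized counts in controls and 120, 39.2, 188 and 46.0 in knockouts, so the mice with the least Adipoq were floxed control 1 and knockouts 6 and 8, and those with the most were control 3 and knockout 7. The list of 10 adipocyte markers, of which 8 passed the filter and Lep and Ucp1 were at or near 0, did not give 1 order of the mice. Its summed level was 43507, 64072, 42786 and 62352 normalized counts in controls and 51738, 54049, 43641 and 69735 in knockouts, so knockout 8 had the highest sum and control 3, control 1 and knockout 7 the lowest. The mean log2 value of the 8 tested markers, which weights them equally, was lowest in floxed control 1 and knockouts 8 and 6 (-1.40, -0.48 and -0.43 from the mean of the 8 mice) and highest in control 3 and knockout 7 (0.77 and 0.61). Knockout 7, the lowest mouse for 8 of the 10 genes, also had the lowest value in 9 of 11 fast glycolytic fibre markers, and its Myh2, the myosin of fast oxidative fibres, was at 59055 normalized counts against 4005 to 18567 in the other mice. Knockout 6, the highest mouse for 5 of the 10, was the highest in 9 of those 11 fast glycolytic fibre markers. Myh2 did not stand for all 10 oxidative and slow fibre markers. Of these 10, knockout 6 was the highest in 5 and the lowest in 1, Myh2, and knockout 7 was the highest in 4. Knockout 6 was also the highest in 9 of 10 markers of macrophages and leukocytes and in 7 of 10 fibroblast markers. Floxed control 1, high for the 10 genes as well, was the lowest in 8 of the same 10 leukocyte markers. The part of adipose tissue, fibre type and other cells in the pattern was not tested.

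Markers of cells that bulk muscle can hold also differed in mean between genotypes, with 0 called in any list. All 10 markers of macrophages and leukocytes had higher means in the knockout (summed 1469 to 2871 normalized counts in controls and 2529 to 4601 in knockouts; Adgre1 at 1.02 log2, C1qa at 0.73), as had 8 of 10 endothelial markers (Cldn5 at 0.73, Flt1 at 0.28), 8 of 10 fibroblast markers (Dpt at 0.22, Dcn at 0.15), 6 of 6 tested Schwann cell markers (Sox10 at 0.65) and 9 of 10 oxidative and slow fibre markers (Myl3 at 2.89, Tnni1 at 2.26). Of the remaining lists, 5 of 8 tested adipocyte markers (Cfd at 0.44, Plin4 at -0.08), 7 of 11 fast glycolytic markers (Mylpf at 0.20, Ckm at 0.15), 3 of 7 tested satellite cell markers (Vcam1 at -0.50, Chodl at -0.22) and 0 of 7 tendon markers (Mkx at -1.01, Fmod at -0.44) were higher. Their part in the differences of the 10 genes was not tested.

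In the receptor pathway, the list of 20 genes for the receptor, hormone activation and chaperones had 19 tested, 0 called, 8 higher and 11 lower, with a median difference of -0.05 log2. Nr3c1, the receptor itself, had 5812, 6203, 5265 and 5552 normalized counts in controls and 5355, 5333, 6035 and 7257 in knockouts, a difference of 0.06 log2 (95% interval -0.17 to 0.30, limma adjusted p = 0.894). Its level did not follow the order of the target genes, since knockout 7 had more Nr3c1 than 5 of the other mice and knockout 6 less than all but floxed control 3. Hsd11b1, whose enzyme regenerates active hormone from its inert form inside cells, was higher on average in the knockout, with 110 ± 29.4 against 178 ± 56.4 normalized counts (SD, n = 4 each; difference 0.68 log2, SE 0.24, limma adjusted p = 0.746). Hsd11b2, which inactivates the hormone, did not pass the filter. Ncoa1, a coactivator of nuclear receptors, differed by -0.24 log2 (SE 0.0842) without a call.

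Of 28 other genes that glucocorticoids induce in muscle or elsewhere, 0 were called, 10 were higher and 18 lower, and the median difference was -0.05 log2. The 2 with the smallest p were Arrdc2, an arrestin-domain gene, at -0.40 log2 (SE 0.145), and the small GTPase gene Rasd1 at 0.98 log2 (SE 0.419), both with a limma adjusted p of 0.746. The same mice led this list: floxed control 1 was the highest in 11 of the 28 genes and knockout 6 in 8, and knockout 7 was the lowest in 8. Errfi1, a feedback inhibitor of EGF receptor signalling picked after its values were seen, had 8298, 3855, 3214 and 4870 normalized counts in controls and 3475, 6388, 2061 and 4823 in knockouts. The abundant genes Trim63 and Pdk4 varied less than Errfi1 relative to their means. Trim63, the ubiquitin ligase MuRF1, was at 176226 ± 11323 in controls and 167672 ± 19547 in knockouts (SD, n = 4 each). Pdk4, the kinase that switches off pyruvate dehydrogenase, was at 214827 ± 13674 and 218045 ± 19515 (SD, n = 4 each). Not every abundant gene of the list was as steady: Txnip was at 52270 ± 6196 and 51135 ± 13369 (SD, n = 4 each).

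Genes around the individual roles gave the same answer of 0 calls. Of 21 tested genes of zinc and copper handling, 10 were higher and 11 lower (median -0.0016 log2); the zinc exporter gene Slc30a1, another target of MTF1, was at 0.85 log2 (SE 0.519) and the zinc transporter gene Slc39a7 at -0.36 (SE 0.186). Mtf1 itself had 459 ± 38.1 and 468 ± 53.1 normalized counts (SD, n = 4 each). Around Glul, 11 of 14 genes of glutamine and glutamate metabolism were higher, with a median of 0.16 log2. Among them were the transporter gene Slc38a1 at 0.83 (SE 0.331) and the alanine transaminase gene Gpt at 0.38 (SE 0.177). Slc38a1 and Slc30a1 lay near the filter, with control means of 11.0 and 14.3 normalized counts. Around Ddit4, 11 of 13 genes of mTORC1 control were lower, with a median of -0.08 log2. Ddit4l, the paralogue of Ddit4, had 5968, 5855, 5114 and 5203 normalized counts in controls and 5301, 3273, 4079 and 3349 in knockouts, and 3 of the 4 knockouts lay below every control (-0.49 log2, SE 0.142, limma adjusted p = 0.746). Tsc1, whose protein restrains mTORC1, was at -0.27 log2 (SE 0.0984). Among 14 tested paralogues of the 10 genes 3 were higher and 11 lower, with a median of -0.06 log2, and after Ddit4l the smallest p belonged to Sgk3, a kinase related to Sgk1, at 0.33 log2 (SE 0.134).

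Lists of clock and immediate early genes were examined because Klf9 and Per1 follow the time of day and several of the 10 genes answer to acute stress. Of 16 clock genes 5 were higher and 11 lower in the knockout, with a median of -0.10 log2; Cry2 was at -0.30 (SE 0.124) and Bhlhe41 at 0.38 (SE 0.25). Of 12 tested immediate early genes 6 were higher and 6 lower, with a median of 0.0059 log2; Jun was at -0.21 (SE 0.0936) and Zfp36 at -0.47 (SE 0.226). Knockout 7 was the lowest mouse in 4 of the 16 clock genes and 3 of the 12 immediate early genes.

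Over all 13141 tested genes, those whose pattern across the 8 mice was most like that of Fkbp5 included Sox4 (r = 0.98), Rnf169 (0.97), B4galt1 (0.96) and Sphk1 (0.96). Those most like Mt2 were Htr2a (0.97), Musk (0.96), Rpe (0.95), Stag2 (0.94) and Zfp410 (0.94), and Mt1, left out of this search as a gene of the set, stood at 0.97 with Mt2, between Htr2a and Musk. Htr2a and Sphk1 lay near the filter, with control means of 14.9 and 10.1 normalized counts. Such values of r are the highest over all tested genes in 8 mice and are given as a description.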

How the data were processed

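Total RNA of 8 mice was sequenced from stranded TruSeq libraries, per the labels' protocols. The authors deposited log2 values for 54091 gene rows. The build GRCm38 and the tools STAR, HTSeq, DESeq2, cutadapt and FastQC appear, unversioned, in the submitters' processing notes. The strand setting and annotation release of the counting were not stated there or in the labels. From the values, each is log2(n + 1), n being reads divided by 1 size factor per library, and 100% of the values of at most 200 reads came within 0.1 read of a whole number. Strand being unstated, reads of overlapping genes cannot be told apart: Spidr reached 0.882% of the mean count of Cebpd, and Gm45774, antisense to Mt2, 0.132%.

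Columns were matched to mice by number. Genes averaging 10 or more normalized counts were tested with limma 3.58.1 in R 4.3.3 (eBayes with trend, pseudocount of 1 as deposited, Benjamini-Hochberg over 13141 genes), which puts fold changes on that log2(n + 1) scale. Single values used exact two-sided permutation over 70 assignments, whose smallest p is 0.0286. Titles number each library as its own mouse; nothing more is said on independence. The closest pair of libraries differed by 17.8 times the sampling noise. Members and lists were chosen with earlier results of these data known. Beside the 10 genes, Acot2, Nr3c1 and Hsd11b1, the 2 genes with the smallest p of each list and the 5 nearest in pattern to Fkbp5 and to Mt2 are named by rule. Errfi1, Trim63, Pdk4, Txnip, Mtf1, Adipoq and Myh2 are named outside that rule. Some genes that the rule names are not reported here. Positions and exon lengths are from GENCODE M21 (GRCm38). Alternatives changed the pseudocount, filter, scaling and fit (voom, array weights, a replicate block) or left out mice. Scripts were tested on simulated data.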

Additional observations from a re-analysis of the deposited data

How the results depend on the processing

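The titles number the mice 1 to 8, but the column headers number them 1 to 4 in each genotype, and no label says that these numbers pair mice. Same-numbered mice did not deviate together throughout (r of deviations from the group means -0.053, 0.10, 0.28 and -0.16 for numbers 1 to 4), and 3 of 8 mice correlated best with their own number. A replicate block by that number, added after seeing the data, called 0 genes in all and 0 of the 10; 931 genes, 2 of them among the 10, had an unadjusted p under 0.05 against 810 and 0 without the block. None of the 10 genes was called under any of 22 alternatives, with adjusted p (limma or voom) from 0.359 to 0.9998. An unadjusted limma p under 0.05 was reached by 2 of the 10 without floxed control 3 and by 2 without mice 3250 and 3251. It was reached by 1 without knockout 6, by 1 without knockout 8 and by 1 without the filter. Over all tested genes 1 gene, Acot2, was called without the filter on low values and 0 under every other setting. Of the 45 pairs 9 passed by Pearson r and 10 by Spearman's rho, and 1 passed by r when libraries were scaled to the same total. Zbtb16, Klf9, Cebpd and Ddit4 kept a lower mean in the knockout under all alternatives. Leaving out 1 mouse at a time, differences ran from -0.18 to 0.044 log2 for Fkbp5, -0.17 to 0.11 for Tsc22d3, -0.29 to 0.35 for Sgk1, -0.091 to 0.15 for Glul, -0.23 to 0.10 for Mt1, -0.20 to 0.25 for Mt2, -0.034 to 0.11 for Nr3c1, -0.54 to 0.00535 for Errfi1, -0.031 to 0.061 for Pdk4, -0.027 to 0.094 for Mtf1, -0.48 to 0.81 for Adipoq, -0.19 to 0.91 for Cfd, -0.020 to 0.34 for Mylpf and -0.91 to 0.39 for Myh2. Scaling to the same total, which moved the median of all genes from 0.0031 to 0.044, gave Mt2 0.015 and Myh2 0.032, and upper-quartile scaling gave Myh2 0.00684. Array weights gave Tsc22d3 0.010 and Mt2 0.000361. Control means of Slc38a1, Rasd1, Slc30a1, Sox10, Myl3 and Tnni1 lay near the filter, at 11.0, 10.4, 14.3, 10.2, 13.7 and 9.73 normalized counts. With a pseudocount of 10 their differences were smaller, at 0.53, 0.58, 0.48, 0.39, 1.86 and 1.57 log2. Without mice 3250 and 3251, Sgk1 was at -0.24, Glul at -0.090, Nr3c1 at -0.072, Pdk4 at -0.028 and Myh2 at 0.71. Without floxed control 4 and knockout 5, chosen after seeing the data for their titin share, Tsc22d3 was at 0.014 and Mtf1 at -0.0146. The cause was not tested. With 4 mice a group, the 95% intervals of the 10 genes ranged from the narrow one of Klf9 (-0.33 to 0.071 log2) to that of Sgk1 (-0.85 to 0.97), and changes inside them could not be told from none.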
